A study of Bos taurus with 4 samples.

Results

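The small leucine-rich proteoglycan genes were followed in bovine intramuscular preadipocytes, cells that can store fat between muscle fibres, cultured with and without retinoids. The members were the 10 genes DCN, BGN, ASPN, LUM, FMOD, PRELP, KERA, OMD, OGN and PODN, found as every non-control probe whose gene name in the array files was one of these symbols. They are 10 of 25232 gene names on the array and had 26 of its 43653 probes: 9 for DCN, 3 each for BGN, PRELP and KERA, 2 each for LUM and OGN, and 1 each for ASPN, FMOD, OMD and PODN. There were 4 groups. The ATRA group was kept for 6 days in adipogenic medium with 1 µM all-trans retinoic acid, the 9cRA group for 6 days with 1 µM 9-cis retinoic acid, the day 6 control for 6 days in that medium without retinoid, and the day 0 group was harvested at the start of adipogenic stimulation. The day 6 control therefore shared with both retinoid groups the insulin (50 ng/mL), dexamethasone (0.25 µM), octanoate (5 mM), acetic acid (10 mM) and 10% fetal bovine serum of the medium, changed every 2 days after confluence. The labels give each group as 1 sample with 3 array files and do not name separate cultures or animals, so n = 3 counts arrays, and the p-values below reflect array-to-array spread alone, possibly only technical. No donor or clone is given for the cells.

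Small leucine-rich proteoglycans are secreted core proteins built of leucine-rich repeats, many of which carry dermatan, chondroitin or keratan sulfate chains. They bind collagen fibrils and set the diameter and spacing of the fibrils, and several bind TGF-beta and other growth factors in the matrix. In muscle they are part of the connective tissue around fibres and fascicles, the compartment in which intramuscular fat cells arise. All-trans and 9-cis retinoic acid are isomers that differ in the geometry of a double bond, and both activate retinoic acid receptors, while the 9-cis form also binds retinoid X receptors.

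The probes through which the genes were read are 60-base oligonucleotides. Of all pairs of probes from different members, a DCN and a BGN probe were the most alike when slid along each other without gaps over at least 30 bases, with 20 identical bases in an overlap of 33 (60.6%). Those shared bases are in capitals in the first pair of sequences, which shows how far the closest members differ where the array reads them. The other 4 are from LUM, OMD and PODN, which were called with both retinoids, and from KERA, which stayed near background. Positions are those of the array files on UMD3.1, and exon, intron and UTR annotation of that build was not used here.
DCN, chr5:21096130-21102844, minus strand: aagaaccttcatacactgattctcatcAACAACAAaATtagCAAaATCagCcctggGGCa
BGN, chrX:39649773-39649832, plus strand: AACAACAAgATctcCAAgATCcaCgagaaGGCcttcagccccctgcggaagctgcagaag
LUM, chr5:21041542-21041601, minus strand: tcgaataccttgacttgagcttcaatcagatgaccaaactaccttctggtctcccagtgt
OMD, chr8:85477036-85477095, minus strand: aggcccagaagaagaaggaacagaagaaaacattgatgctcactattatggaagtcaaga
PODN, chr3:93731480-93731539, minus strand: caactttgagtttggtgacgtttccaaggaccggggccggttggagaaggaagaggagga
KERA, chr5:21000978-21001037, minus strand: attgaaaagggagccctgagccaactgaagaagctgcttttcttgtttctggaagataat
The DCN probe above spans 6715 bases of the genome for its 60 bases, so it crosses at least one intron, whereas the other 5 lie in 1 stretch each.

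On the 12 arrays 64.8% to 74.0% of probe spots were well above background and 0 spots were saturated. Values are on a log2 scale on which 0 is the 75th percentile of that array's probes (1094 to 1359 signal units). They serve to compare groups for 1 probe, not to compare genes. There were 3 slides. Day 6 control array 1 shared slide 1 with all of day 0, the other day 6 control arrays shared slide 2 with ATRA arrays 1 and 2, and ATRA array 3 shared slide 3 with all of 9cRA. No slide held a retinoid group together with day 0, or 9cRA together with the day 6 control. Probes were tested where some group had them well above background on each of its arrays, which left 31207. Of the members, 23 of 26 probes and 9 of 10 genes passed, and these 23 were well above background on all 12 arrays. KERA was the gene left out. A difference was called at a Benjamini-Hochberg adjusted p under 0.05 over all 31207 probes in limma's moderated test, and a gene with several probes is represented by its brightest one.

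With either retinoid, ASPN, LUM, BGN, DCN and OMD fell relative to the day 6 control and PODN rose. FMOD, PRELP and OGN did not pass the test. With ATRA 6 of 9 genes were called, 1 higher and 5 lower, against 43.5% of all tested probes, 21.9% higher and 21.5% lower. With 9cRA 6 of 9 were also called, 1 higher and 5 lower, against 43.5%, 22.7% higher and 20.9% lower. Over 6 days of culture without retinoid, LUM, BGN, DCN and OMD rose and FMOD, PRELP and PODN fell, so 7 of 9 genes were called, 4 higher and 3 lower, against 61.7% of all probes, 28.6% higher and 33.1% lower. The share of members called was therefore close to the background in the culture comparison and somewhat above it in both retinoid comparisons, at 9 genes. By size, 4 of the 9 genes were called and changed at least 2-fold with ATRA, 4 with 9cRA and 4 over culture, where 7.60%, 7.62% and 14.0% of all tested probes did so. The median size of the difference over the 9 genes, without its sign, was 0.69 with ATRA, 0.64 with 9cRA and 0.68 over culture on the log2 scale, against 0.25, 0.24 and 0.37 over all probes. The retinoid and culture comparisons share the day 6 control arrays, so opposite signs in them are not independent of each other.

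**Figure D1:**
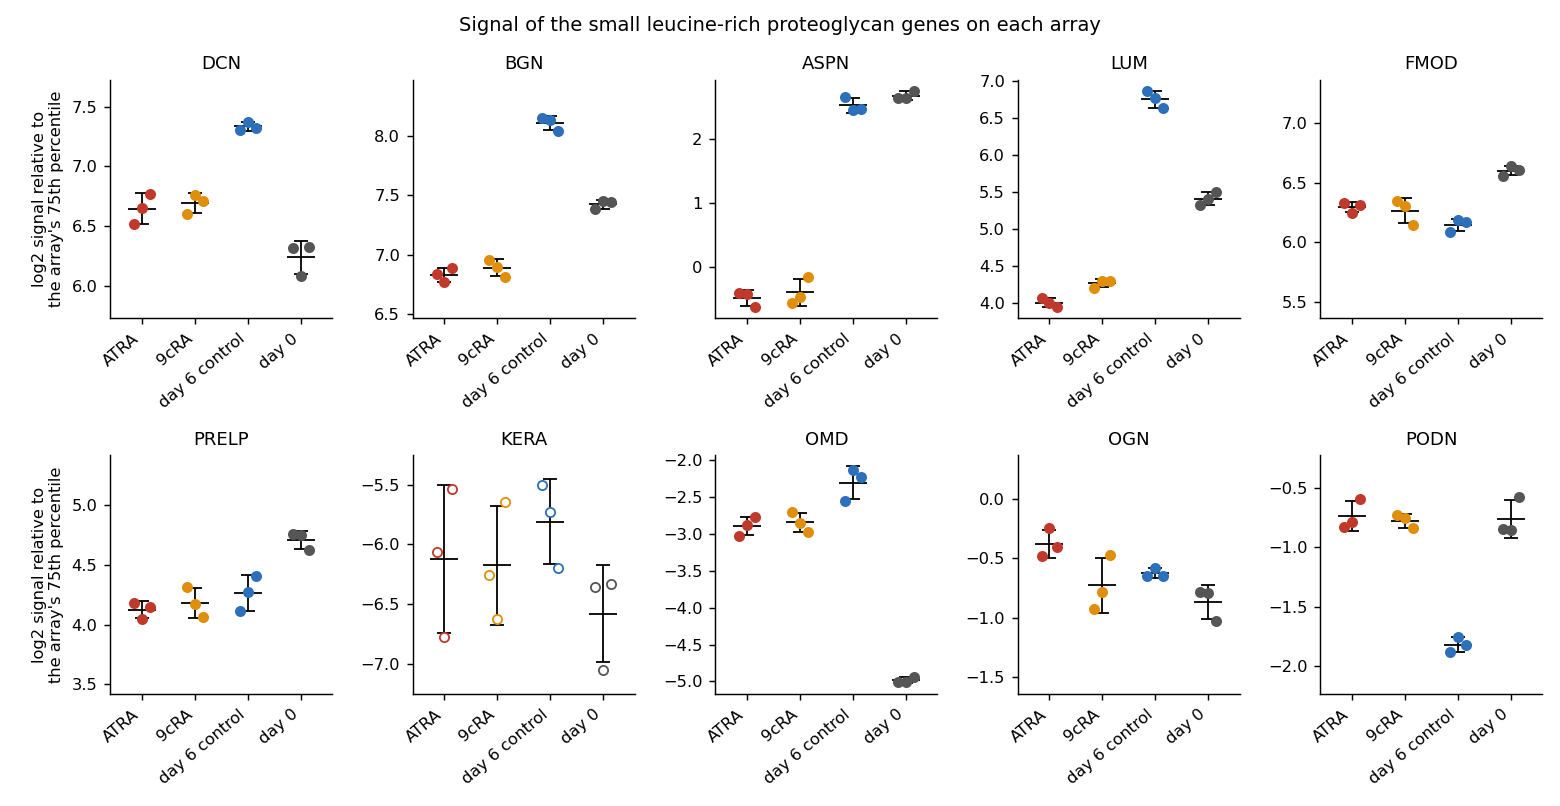
Log2 signal relative to the array's 75th percentile (vertical axis, a separate scale in each panel) of the 10 genes on each array, by group, for the brightest probe of each gene. Points are arrays (open where the probe was not well above background on all 3 arrays of the group), long ticks are means and bars are 1 SD (n = 3 arrays). LUM, BGN and DCN are highest in the day 6 control and PODN is lowest there, while ASPN lies at 2.46 or above in the day 6 control and at day 0 and below 0 with both retinoids.

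**Figure D2:**
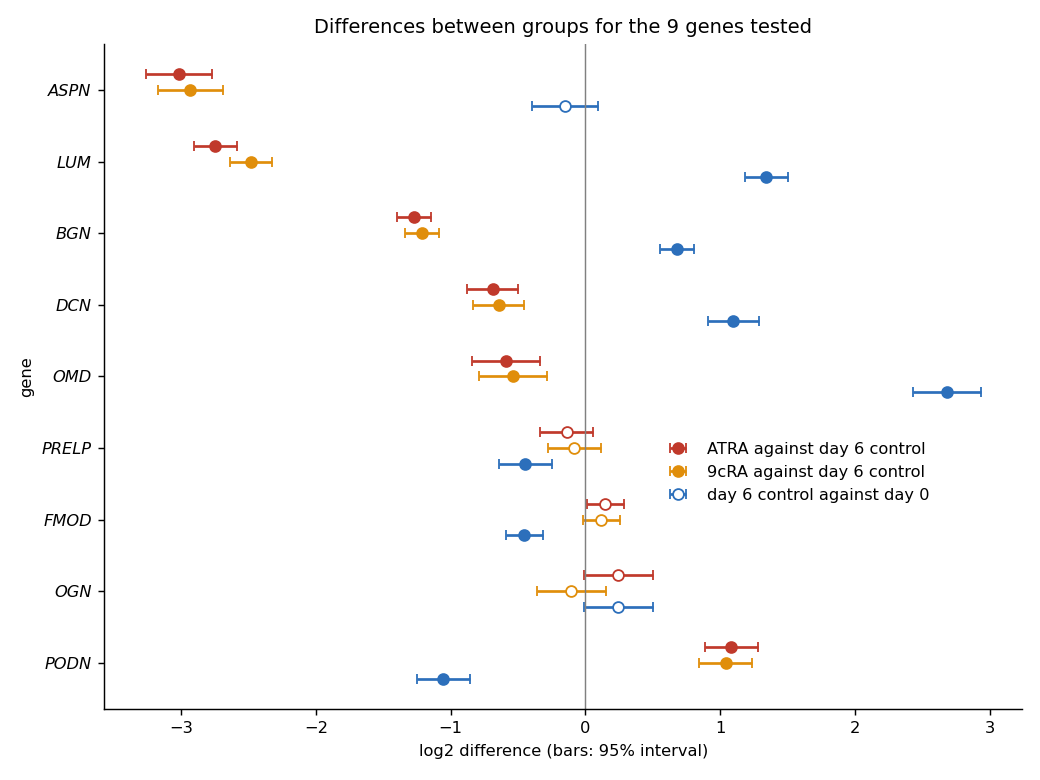
Log2 difference (horizontal axis) for each of the 9 tested genes, with its 95% interval, for ATRA and 9cRA against the day 6 control and for the day 6 control against day 0. Filled points were called at an adjusted p under 0.05 and open points were not; ASPN has the lowest values with retinoid, and PODN is the gene called higher with both.

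Decorin, biglycan and asporin form class I of the family. DCN encodes decorin, which binds collagen type I fibrils and TGF-beta and usually carries a single dermatan or chondroitin sulfate chain. Its brightest probe (chr5:21080788-21080847, minus strand) gave 6.52, 6.65 and 6.77 on the ATRA arrays, 6.60, 6.76 and 6.71 on the 9cRA arrays, 7.31, 7.38 and 7.32 on the day 6 control arrays, and 6.31, 6.08 and 6.32 on the day 0 arrays. All day 6 control arrays were above all others, the retinoid arrays overlapped each other, and the day 0 arrays were lowest. DCN was 1.61-fold lower with ATRA than in the day 6 control (log2 difference -0.69 ± 0.09 SE, adjusted p = 9.0e-05 in limma) and 1.56-fold lower with 9cRA (-0.64 ± 0.09, adjusted p = 1.5e-04). Over culture it was 2.14-fold higher in the day 6 control than at day 0 (1.10 ± 0.09, adjusted p = 1.4e-06).

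The 9 DCN probes lie between bases 21079995 and 21119001 of chromosome 5, and all 9 were called in the same direction in each of these comparisons. Their log2 differences were -1.20 to -0.68 with ATRA, -1.16 to -0.52 with 9cRA and 0.59 to 1.57 over culture, so the brightest probe gave one of the smaller differences of the 9. Against day 0 the probes were less uniform. With ATRA 6 of 9 were called higher and 3 were not called, and with 9cRA 7 of 9 were called higher and 2 were not. The brightest probe was 0.41 above day 0 with ATRA (adjusted p = 0.0015) and 0.45 above it with 9cRA (adjusted p = 7.6e-04). With the slide as a block these values were 0.30 (adjusted p = 0.14) and 0.22 (adjusted p = 0.40), so neither was called.

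BGN encodes biglycan, the closest relative of decorin, which carries chondroitin or dermatan sulfate chains and binds collagen, TGF-beta family ligands and Toll-like receptors. Its brightest probe (chrX:39653606-39653665, plus strand) gave 6.84, 6.77 and 6.89 with ATRA, 6.96, 6.90 and 6.82 with 9cRA, 8.14, 8.13 and 8.04 in the day 6 control, and 7.38, 7.45 and 7.44 at day 0. The arrays of both retinoid groups lay below those of day 0, and those of the day 6 control lay above. BGN was 2.41-fold lower with ATRA than in the day 6 control (-1.27 ± 0.06, adjusted p = 4.7e-08), 2.32-fold lower with 9cRA (-1.21 ± 0.06, adjusted p = 6.9e-08), and 1.60-fold higher in the day 6 control than at day 0 (0.68 ± 0.06, adjusted p = 2.4e-06).
The other 2 BGN probes were called in the same directions, with -1.95 and -1.13 for ATRA, -1.75 and -1.04 for 9cRA, and 1.39 and 1.21 over culture. Against day 0 the 3 probes did not give one sign. The brightest gave -0.59 with ATRA and -0.53 with 9cRA, both called, and the probe printed above was also called lower (-0.56 and -0.36), but the probe at chrX:39648372-39648428 gave 0.081 and 0.18 and was not called. No direction of BGN relative to day 0 is therefore given.

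ASPN encodes asporin, which has a run of aspartate residues in place of the chain-bearing region of its relatives and binds collagen and TGF-beta. Its single probe (chr8:85499448-85499507, minus strand) gave -0.41, -0.42 and -0.64 with ATRA, -0.57, -0.48 and -0.17 with 9cRA, 2.66, 2.46 and 2.46 in the day 6 control, and 2.63, 2.65 and 2.76 at day 0. The retinoid arrays overlapped each other and lay far below the rest, and the day 6 control arrays overlapped those of day 0. ASPN was 8.09-fold lower with ATRA than in the day 6 control (-3.02 ± 0.11, adjusted p = 1.1e-08) and 7.63-fold lower with 9cRA (-2.93 ± 0.11, adjusted p = 1.5e-08). It was likewise 8.98-fold lower with ATRA and 8.47-fold lower with 9cRA than at day 0. The day 6 control and day 0 did not differ beyond the spread between arrays (-0.15, 95% interval -0.39 to 0.09, adjusted p = 0.25). This was the largest difference between retinoid and day 6 control among the 9 genes' brightest probes, and ASPN was the only gene of the 9 called lower with both retinoids and not called over culture.

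Lumican, fibromodulin, PRELP, keratocan and osteomodulin form class II. LUM encodes lumican, a keratan sulfate proteoglycan that regulates collagen fibril assembly. Its brighter probe (chr5:21037692-21037751, minus strand) gave 4.07, 3.999 and 3.95 with ATRA, 4.21, 4.30 and 4.29 with 9cRA, 6.86, 6.76 and 6.63 in the day 6 control, and 5.32, 5.405 and 5.495 at day 0. The 4 groups did not overlap one another, with ATRA lowest, 9cRA next, then day 0 and the day 6 control. LUM was 6.71-fold lower with ATRA than in the day 6 control (-2.75 ± 0.07, adjusted p = 1.4e-09) and 5.58-fold lower with 9cRA (-2.48 ± 0.07, adjusted p = 2.8e-09). Over culture it was 2.54-fold higher in the day 6 control than at day 0 (1.34 ± 0.07, adjusted p = 7.9e-08).
The second LUM probe, printed above, gave 0.84, 0.77 and 0.82 with ATRA, 0.92, 1.04 and 1.01 with 9cRA, 4.16, 3.91 and 3.91 in the day 6 control, and 2.32, 2.33 and 2.38 at day 0. It had the same order of groups and larger differences, of 9.09-fold with ATRA, 8.01-fold with 9cRA and 3.14-fold over culture. Both probes also put LUM below day 0, with log2 differences of -1.40 and -1.53 for ATRA and -1.14 and -1.35 for 9cRA.

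FMOD encodes fibromodulin, a keratan sulfate proteoglycan that binds collagen at sites it shares with lumican. Its probe (chr16:935056-935115, plus strand) gave 6.33, 6.24 and 6.31 with ATRA, 6.34, 6.30 and 6.14 with 9cRA, 6.09, 6.18 and 6.17 in the day 6 control, and 6.56, 6.64 and 6.60 at day 0. The day 0 arrays were above all others, the ATRA arrays lay above those of the day 6 control, and the 9cRA arrays overlapped both. FMOD was 1.37-fold lower in the day 6 control than at day 0 (-0.45 ± 0.06, adjusted p = 9.0e-05). The difference from the day 6 control was 0.15 with ATRA (95% interval 0.01 to 0.28, adjusted p = 0.075) and 0.12 with 9cRA (-0.02 to 0.25, adjusted p = 0.15). Without 9cRA array 3 the 9cRA difference was 0.18 and was called (adjusted p = 0.032). Relative to day 0 the FMOD differences of -0.31 with ATRA and -0.34 with 9cRA were both called. With cyclic loess normalization the differences were -0.12 and -0.18, and neither was called; with quantile normalization that of ATRA was -0.16, not called.

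PRELP encodes a proline- and arginine-rich member that binds heparan sulfate chains and collagen. Its brightest probe (chr16:1055878-1055937, plus strand) gave 4.18, 4.05 and 4.15 with ATRA, 4.31, 4.17 and 4.06 with 9cRA, 4.11, 4.28 and 4.41 in the day 6 control, and 4.76, 4.76 and 4.62 at day 0. The 3 day 6 groups overlapped one another and lay below day 0. PRELP was 1.36-fold lower in the day 6 control than at day 0 (-0.45 ± 0.09, adjusted p = 0.0013), although with quantile normalization the difference was -0.26 (adjusted p = 0.057). The other 2 probes gave -0.39 (adjusted p = 0.0016) and -0.27 (adjusted p = 0.14).
With retinoid the 3 PRELP probes differed. The brightest gave -0.14 with ATRA and -0.08 with 9cRA, neither called, whereas the dimmest (chr16:1049487-1049546) gave 0.14 with ATRA, not called, and 0.48 with 9cRA, called (adjusted p = 6.4e-04). Against day 0, ATRA gave -0.59 on the brightest probe and -0.25 on the dimmest, both called. The other probe gave -0.24, not called. With 9cRA the difference from day 0 was -0.53 on the brightest probe, called, and 0.097 and 0.066 on the others, not called. The direction of PRELP with 9cRA relative to day 0 was thus not shared by its probes.

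OMD encodes osteomodulin, also called osteoadherin, a keratan sulfate proteoglycan known from bone. Its probe, printed above, gave -3.02, -2.87 and -2.77 with ATRA, -2.70, -2.85 and -2.97 with 9cRA, -2.55, -2.13 and -2.22 in the day 6 control, and -5.00, -5.01 and -4.94 at day 0. All day 6 arrays lay far above day 0, and the day 6 control arrays lay above those of both retinoid groups. OMD was 6.41-fold higher in the day 6 control than at day 0 (2.68 ± 0.11, adjusted p = 1.4e-08), the largest culture difference of the 9 genes. The signal was low, at 36.1 to 39.5 units on the day 0 arrays against 209.9 to 291.3 in the day 6 control, and with the normexp background correction the log2 difference was 1.58. OMD was 1.502-fold lower with ATRA than in the day 6 control (-0.59 ± 0.11, adjusted p = 0.0018) and 1.45-fold lower with 9cRA (-0.54 ± 0.11, adjusted p = 0.0031). It was still 4.27-fold higher with ATRA and 4.41-fold higher with 9cRA than at day 0, and with normexp these log2 differences were 1.16 and 1.19.

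KERA encodes keratocan, the keratan sulfate proteoglycan of the cornea, and none of its 3 probes was tested. Its probes were well above background on 2, 1 and 1 of the 3 day 6 control arrays, on 1 ATRA array for the brightest probe, and on 0 of the 3 arrays at day 0 and with 9cRA. The probe printed above gave signals of 10.8 to 23.5 units with ATRA, 12.4 to 24.2 with 9cRA, 18.5 to 27.2 in the day 6 control and 8.76 to 15.1 at day 0, so all 4 groups were near the floor and no fold is given. On the dimmest KERA probe a single array, day 6 control array 3, gave 114 units, against 20.9 and 18.2 on the other day 6 control arrays.

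OGN, the class III member, encodes osteoglycin, also called mimecan. Its brighter probe (chr8:85454354-85454413, plus strand) gave -0.48, -0.25 and -0.41 with ATRA, -0.93, -0.78 and -0.47 with 9cRA, -0.65, -0.58 and -0.65 in the day 6 control, and -0.78, -0.79 and -1.03 at day 0. The ATRA arrays were above those of the day 6 control and of day 0, and the 9cRA arrays overlapped all 3 other groups. Relative to the day 6 control the difference was 0.24 with ATRA (95% interval -0.01 to 0.50, adjusted p = 0.11) and -0.10 with 9cRA (-0.36 to 0.15, adjusted p = 0.49). The second probe (chr8:85468575-85468634) was called higher with both, by 0.28 with ATRA (adjusted p = 0.0056) and 0.38 with 9cRA (adjusted p = 9.0e-04). Over culture neither probe was called, at 0.24 and -0.02. With ATRA, OGN was 0.49 above day 0 on the brighter probe (adjusted p = 0.0032) and 0.26 on the other, and with the slide as a block the first was 0.47 (adjusted p = 0.14).

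PODN, the class V member, encodes podocan, which was first described in the kidney glomerulus and binds collagen. Its probe, printed above, gave -0.83, -0.79 and -0.59 with ATRA, -0.73, -0.76 and -0.84 with 9cRA, -1.88, -1.75 and -1.82 in the day 6 control, and -0.85, -0.86 and -0.58 at day 0. The day 6 control arrays lay below all others, and the arrays of both retinoid groups overlapped those of day 0. PODN was 2.12-fold higher with ATRA than in the day 6 control (1.08 ± 0.09, adjusted p = 4.1e-06) and 2.06-fold higher with 9cRA (1.04 ± 0.09, adjusted p = 6.0e-06), and 2.08-fold lower in the day 6 control than at day 0 (-1.06 ± 0.09, adjusted p = 2.5e-06). Neither retinoid group differed from day 0 beyond the spread between arrays, with 0.03 for ATRA (95% interval -0.17 to 0.22) and -0.02 for 9cRA (-0.21 to 0.18). These intervals take no account of the slide, and no slide held a retinoid group together with day 0. With the slide as a block the PODN differences were -0.14 for ATRA and -0.32 for 9cRA.

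Slide 2 held 2 arrays each of ATRA and the day 6 control. Within it, which is also what the slide as a block gives, ASPN differed by -2.88, LUM by -2.66, BGN by -1.28, OMD by -0.77, DCN by -0.76 and PODN by 0.98, and all 6 were called. For 9cRA, linked to the day 6 control only through the ATRA arrays on 2 slides, the blocked differences were -2.64 for ASPN, -2.34 for LUM, -1.28 for BGN, -0.84 for DCN, -0.84 for OMD and 0.79 for PODN, and all 6 were called. On slide 1, with 1 day 6 control array against 3 day 0 arrays, the culture differences were 2.43 for OMD, 1.45 for LUM, 1.07 for DCN, 0.72 for BGN, -0.51 for FMOD, -0.60 for PRELP and -1.12 for PODN, again all called. In that slide 1 comparison the lone day 6 control array is assumed to vary like the arrays of the other groups. It is also the array that stood apart, with 110 outlier spots against 4 to 12 on the others and 64.8% of spots well above background. With each of the 6 arrays of both groups left out in turn, the number of the family called over culture stayed at 7. In none of these 3 comparisons did a blocked difference of a called gene change sign. The share of all tested probes called with the slide as a block is not given, so the blocked calls have no background beside them.

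Relative to day 0, 8 of 9 genes were called with ATRA (3 higher, 5 lower), against 70.4% of all tested probes (35.5% higher, 34.9% lower). With 9cRA 7 of 9 were called (2 higher, 5 lower), against 69.8% (35.7% higher, 34.1% lower). These counts of 9 lie near the background. They rest on the brightest probe of each gene and include calls that other probes or settings above did not share. Those calls are of BGN, DCN, FMOD and PRELP with both retinoids and of OGN with ATRA. OMD stayed above day 0 and ASPN and LUM below it with both retinoids, each by more than 2-fold, a size reached by 20.4% of all tested probes with ATRA and 20.0% with 9cRA. These 3 were called in every setting compared, including the slide as a block, where the ATRA differences were 1.66, -2.89 and -1.21 and those of 9cRA 1.59, -2.66 and -0.89.

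ATRA and 9cRA, at the same dose and time, were compared with each other as 1 pair. None of the 9 genes and 0 of the 23 probes was called in limma, against 0.151% of all tested probes (47 of 31207). At an unadjusted p under 0.05 in limma there were 2 of 9 genes and 4 of 23 probes, beside 3164 of all 31207 tested probes. The intervals reflect the spread between arrays and take no account of the slide, which differed between most ATRA arrays and the 9cRA arrays. For ASPN the difference, ATRA minus 9cRA, was -0.09 (95% interval -0.33 to 0.16), for BGN -0.06 (-0.18 to 0.07), for DCN -0.04 (-0.23 to 0.14), for OMD -0.05 (-0.30 to 0.20) and for PODN 0.04 (-0.16 to 0.24). With the slide as a block, which leaves a single ATRA array beside 9cRA, the differences were -0.23 for ASPN and -0.003 for BGN. Those of DCN, OMD and PODN were then 0.08, 0.07 and 0.18.
LUM was the gene whose arrays did not overlap between the isomers on either of its probes, at log2 differences of -0.26 (95% interval -0.42 to -0.11, adjusted p = 0.25 in limma) and -0.18 (-0.34 to -0.02, adjusted p = 0.43). Non-overlap was found for 16.5% of all tested probes and for 4 of the 23 of the family. On slide 3, which held ATRA array 3 and all 9cRA arrays, the difference was -0.32 (adjusted p = 0.24), with the single ATRA array assumed to vary like the others. The OGN probes differed in opposite directions, by 0.35 and -0.10, and the dimmest PRELP probe gave -0.34 (adjusted p = 0.17).

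**Figure D3:**
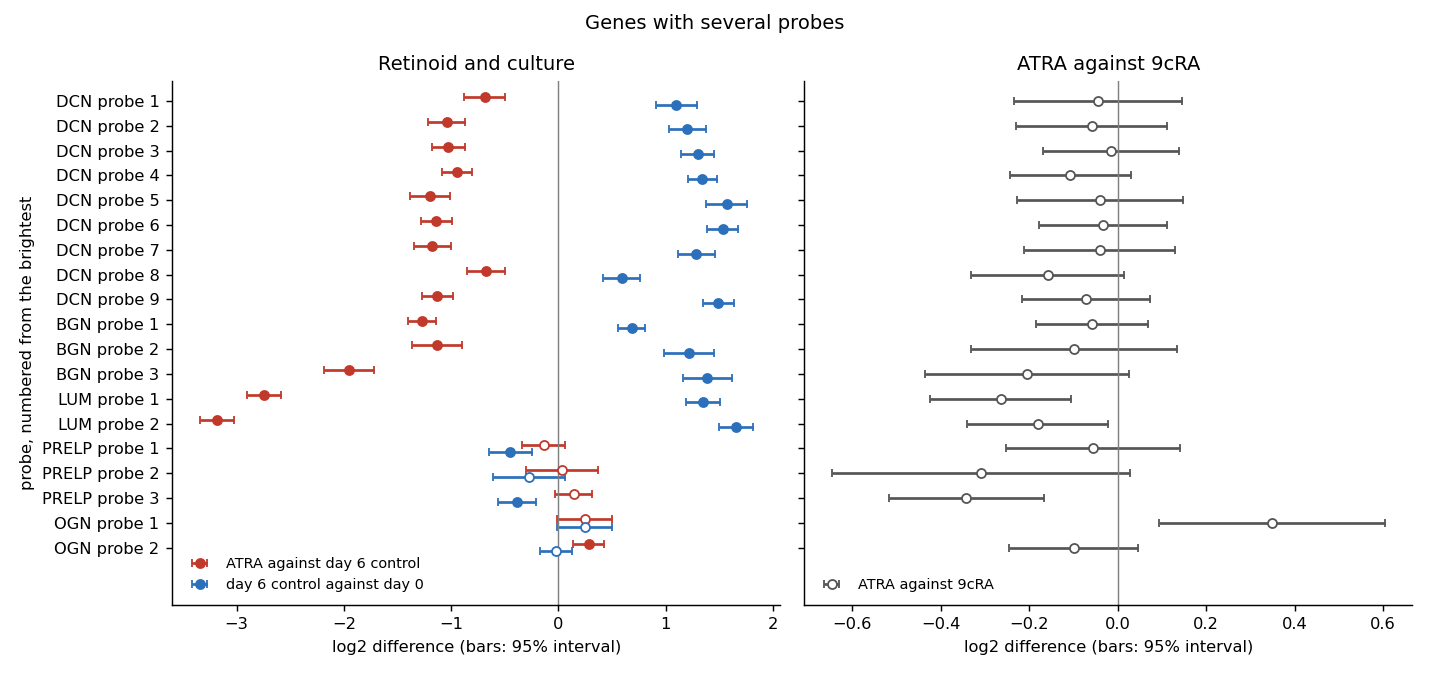
Log2 difference (horizontal axis) with its 95% interval for each probe of DCN, BGN, LUM, PRELP and OGN, numbered from the brightest; at left ATRA against the day 6 control and the day 6 control against day 0, at right ATRA against 9cRA on its own scale. Filled points were called; all DCN, BGN and LUM probes are negative with ATRA and positive over culture, and no point is filled at right.

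Several of the genes are neighbours. By their order in RefSeq's table for ARS-UCD2.0, EPYC, KERA, LUM and DCN lie together on chromosome 5, OGN, OMD, ASPN and ECM2 follow one another on chromosome 8, and FMOD, PRELP and OPTC lie together on chromosome 16. EPYC (epiphycan), ECM2 and OPTC (opticin) are relatives outside the 10 members. On chromosome 5 the 3 tested genes had the same signs: EPYC gave log2 differences of -1.15 with ATRA (adjusted p = 0.001 in limma), -1.38 with 9cRA (adjusted p = 3.2e-04) and 1.26 over culture (adjusted p = 3.1e-04), and LUM and DCN were also lower with both retinoids and higher over culture.
On chromosome 8 the neighbours differed. ASPN was 8.09-fold lower with ATRA and 7.63-fold lower with 9cRA while ECM2, next to it, gave -0.07 with ATRA and -0.00 with 9cRA, neither called. OMD, on the other side of ASPN, was 6.41-fold higher over culture, whereas ECM2 was lower (log2 difference -1.62, adjusted p = 3.2e-09) and ASPN did not change by the test. On chromosome 16, FMOD, PRELP and OPTC were each called lower over culture (-0.45, -0.45 and -0.56) and none was called with retinoid on its brightest probe.

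**Figure D4:**
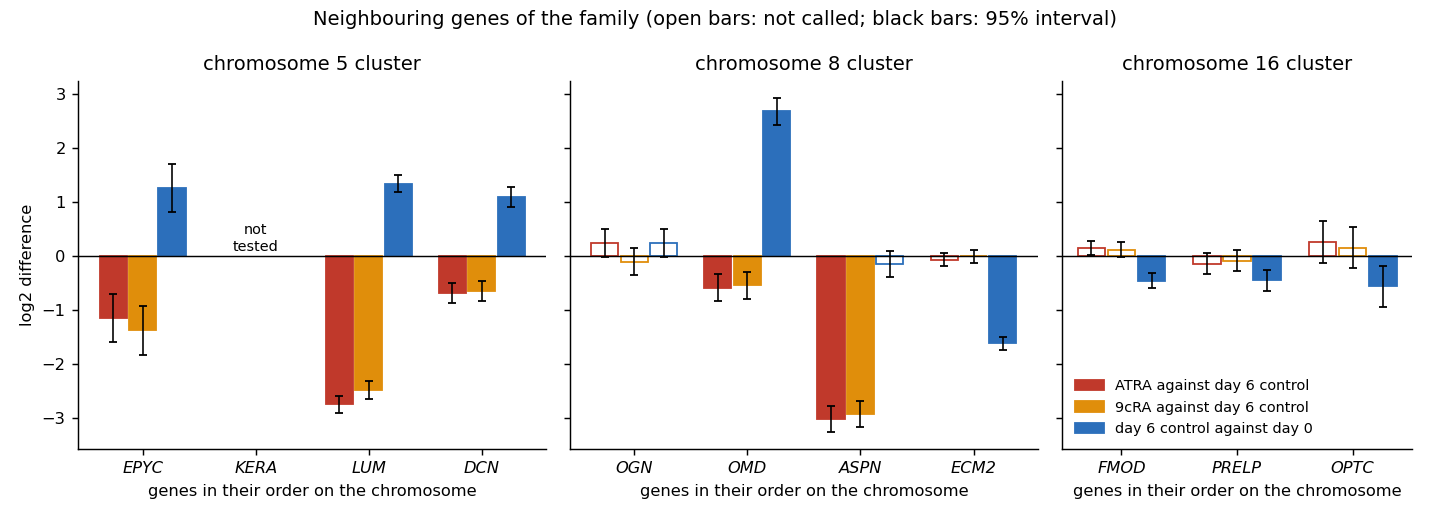
Log2 differences (vertical axis) of neighbouring genes of the family in their order along chromosomes 5, 8 and 16, for ATRA and 9cRA against the day 6 control and the day 6 control against day 0. Filled bars were called, open bars were not, and black bars are 95% intervals; the bars of EPYC, LUM and DCN share their signs, whereas OMD, ASPN and ECM2 differ.

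A further 6 relatives of the family were tested, among them the 3 neighbours above. Over all tested probes 43.5% were called with ATRA (21.9% higher, 21.5% lower) and 43.5% with 9cRA (22.7% higher, 20.9% lower). Over culture 61.7% were called (28.6% higher, 33.1% lower), and the same shares apply to the gene lists below. With ATRA 3 of 6 were called lower and 0 higher (median log2 difference -0.32), with 9cRA 3 lower and 0 higher (-0.25), and over culture 3 higher and 3 lower (-0.21); the medians of all tested probes were 0.04, 0.05 and -0.03. Besides EPYC, those lower with retinoid were PODNL1, the relative of podocan (-0.70 with ATRA and -0.68 with 9cRA), and TSKU (tsukushi, -0.58 and -0.49).

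The enzymes that build the sugar chains were described from lists chosen by function. Their counts stand beside 43.5% of all tested probes called with each retinoid and 61.7% over culture. Of 23 tested genes of linker, chondroitin and dermatan sulfate synthesis, 4 were called higher and 10 lower with ATRA (median -0.11), 4 higher and 9 lower with 9cRA (-0.09), and 7 higher and 4 lower over culture (0.12). PAPSS2, which makes the sulfate donor, had log2 differences of -1.32 with ATRA (adjusted p = 1.4e-05) and -0.83 with 9cRA (adjusted p = 4.4e-04). Those of CHSY3, a chondroitin synthase, were -1.02 and -0.90, and those of UST, a uronyl sulfotransferase, were 0.40 and 0.53. Over culture the log2 difference was 0.97 for CHSY1, another chondroitin synthase, 1.27 for CHST3, a chondroitin sulfotransferase, and -1.03 for the sulfate transporter SLC26A2.
Of 7 genes of keratan sulfate synthesis, 0 were higher and 2 lower with ATRA (median -0.06) and with 9cRA (-0.03), and 4 were higher and 1 lower over culture (0.65). The 2 were CHST2, a sulfotransferase (-1.63 and -1.43), and B3GNT2, which extends the chain (-0.70 and -0.54). Over culture CHST2 gave 1.46, CHST1, another sulfotransferase, gave 1.34 and B3GNT2 gave -1.17.

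The collagens that the proteoglycans bind, and the enzymes that process them, were described in the same way. Again 43.5% of all tested probes were called with each retinoid and 61.7% over culture, and counts near those shares are not results about a list. Of 11 tested fibril-forming and fibril-associated collagens, 0 were higher and 5 lower with ATRA (median -0.34) and with 9cRA (-0.30), with COL11A1 at -1.002 and -0.96 and COL16A1 at -0.79 and -1.02. Over culture 3 of the 11 were higher and 6 lower (-0.17), with COL12A1 at 1.47 and COL5A3 at -2.65. Of 17 genes of collagen processing and cross-linking, 1 was higher and 10 lower with each retinoid (median -0.41 for both), and 13 were higher and 2 lower over culture (0.47). P4HA3, a prolyl hydroxylase subunit, had log2 differences of -3.33 with ATRA (adjusted p = 3.8e-09), -3.21 with 9cRA (adjusted p = 5.5e-09) and 4.76 over culture (adjusted p = 1.4e-10).
Of 11 proteases known to cut proteoglycan core proteins, 5 were called higher and 2 lower with ATRA (median 0.35) and 7 higher and 2 lower with 9cRA (0.46), with 5 higher and 2 lower over culture (0.055). With ATRA and 9cRA the log2 differences were 2.01 and 2.17 for the collagenase MMP1, 1.45 and 1.39 for ADAMTS1, and -0.99 and -1.43 for ADAMTS5. Of 15 growth factors and receptors known to bind the family, 5 were higher and 7 lower with ATRA and 4 higher and 6 lower with 9cRA (medians -0.17 and -0.02), and 7 higher and 6 lower over culture (0.14). Among them TGFB3 gave log2 differences of 1.46 and 1.29, and BMP4 gave -1.49 and -1.45.
Of 21 other matrix and membrane proteoglycans, 5 were higher and 10 lower with ATRA and 6 higher and 9 lower with 9cRA (medians -0.39 and -0.45), and 12 were higher and 6 lower over culture (0.59). TGFBR3, the membrane proteoglycan betaglycan, gave log2 differences of -2.07 and -1.89, the heparan sulfate proteoglycan SDC1 gave -2.01 and -1.91, and AGRN (agrin) gave 1.90 and 1.84.

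Markers of the labelled cells and of other cell types were read beside these results. The shares of all tested probes called, 43.5% with each retinoid and 61.7% over culture, apply to their counts too. All 7 stromal preadipocyte markers were well above background in every group. Of these 7, 3 were called higher and 1 lower with ATRA (median 0.28), 5 higher and 1 lower with 9cRA (0.51), and 3 higher and 3 lower over culture (0.19). The receptor PDGFRA had log2 differences of 1.38 with ATRA, 1.29 with 9cRA and 2.12 over culture, and the surface glycoprotein THY1 had -1.77 and -1.71 with the retinoids.
Of 6 tested adipocyte markers, 0 were called higher and 2 lower with each retinoid (medians -0.0087 with ATRA and 0.059 with 9cRA), and 3 were higher and 1 lower over culture (0.97). The pair called lower were the fatty acid carrier FABP4, at -4.94 with ATRA and -4.64 with 9cRA, and the lipid droplet protein CIDEC, at -0.68 and -0.41. The CIDEC signal was low, at mean log2 values of -5.40 with ATRA and -5.12 with 9cRA, though well above background on all 3 arrays of each. Over culture FABP4 differed by 4.34, LPL by 2.49, PPARG by 1.81 and CIDEC by -2.84. ADIPOQ was well above background on none of the 12.
Of 4 tested leukocyte markers all 4 were called higher with both retinoids on their brightest probe, and their summed signal relative to the 75th percentile was 4.05 to 4.26 with ATRA, 3.80 to 4.21 with 9cRA, 1.39 to 2.12 in the day 6 control and 1.90 to 2.22 at day 0. ITGAM was well above background on none of the 12 arrays. The 4 tested genes were well above background on every array at day 0 and with both retinoids, and 3 of them were in the day 6 control. For tendon, whose fibroblasts also make these proteoglycans, only MKX of 4 markers was tested (-0.87 with ATRA and -0.88 with 9cRA). SCX and TNMD were well above background on none. The summed tendon signal was 1.20 to 1.28 with ATRA, 1.21 to 1.26 with 9cRA, 2.12 to 2.38 in the day 6 control and 2.73 to 3.07 at day 0. Nearly all of that sum is the MKX probe, so it adds no second measurement.
The summed signal of 8 skeletal muscle markers was 20.1 to 20.4 with ATRA, 21.6 to 23.3 with 9cRA, 45.0 to 49.4 in the day 6 control and 74.4 to 78.9 at day 0. This sum weighs the brightest probes most. With both retinoids and in the day 6 control most of it was the brightest DES probe, at mean log2 values of 4.07 with ATRA and 4.24 with 9cRA. By gene, of 6 tested, 1 was called higher and 2 lower with ATRA (median 0.23), 0 higher and 2 lower with 9cRA (0.16), and 1 higher and 2 lower over culture (-0.06). ACTA1, skeletal muscle actin, had log2 differences of -2.38 with ATRA, -2.40 with 9cRA and -0.59 over culture. The probes of DES, the intermediate filament protein desmin, disagreed: the brightest gave -1.31 with ATRA and -1.14 with 9cRA, and the others 2.53 to 2.56 with ATRA and 2.58 to 2.60 with 9cRA. The lower sum with retinoid than in the day 6 control therefore rests largely on a probe whose direction the other DES probes did not share. Over culture MYH3, an embryonic myosin, was higher by 2.86.
The 6 endothelial markers summed to 0.49 to 0.58 with ATRA, 0.42 to 0.55 with 9cRA, 0.19 to 0.27 in the day 6 control and 0.15 to 0.18 at day 0, with PECAM1 well above background on none. Of 4 tested, 2 were called higher with ATRA (median 0.54), 1 higher with 9cRA (0.50), and 2 higher and 1 lower over culture (0.64).
Cartilage and bone markers summed to 3.46 to 3.58, 3.35 to 3.63, 2.93 to 3.70 and 3.47 to 3.62 in ATRA, 9cRA, day 6 control and day 0 cells, and IBSP was well above background on none. Of 4 tested, only ACAN (aggrecan, a cartilage proteoglycan) was called in any of these 3 comparisons, with log2 differences of -1.95 with ATRA (adjusted p = 1.3e-06), -2.31 with 9cRA (adjusted p = 3.8e-07) and -1.66 over culture (adjusted p = 2.3e-06). The part of these markers in the results was not tested, and fewer cells of a type and less RNA per cell cannot be told apart in such bulk samples.

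The likeness of profiles was measured by Pearson's r over the 12 arrays among 10778 genes well above background on all of them, as a description in which the arrays share their group means and slides. BGN and LUM had an r of 0.994 with each other, which made LUM the second most alike gene to BGN, and UHRF2 was the first (0.994). For LUM the 2 most alike were ANKRD1 (0.996) and DKK3 (0.994), for ASPN S100A10 (0.998) and JAKMIP2 (0.996), and for OMD WIPI1 (0.995) and FOXO1 (0.994). For DCN they were GPBAR1 (0.987) and NDUFA4L2 (0.981), and for PODN GTF2IRD2 and XAB2 (0.980 each). Within the family PODN ran opposite to BGN (-0.867) and LUM (-0.860), and FMOD ran opposite to OMD (-0.918) and DCN (-0.862). OGN had the least similar nearest gene, TEKT2 at 0.949.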

How the data were processed

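Total RNA (100 ng) was amplified from a poly-dT primer, so probes near a transcript's 3′ end are favoured, and hybridised to 12 one-colour (Cy3) bovine Agilent arrays, per the labels' protocols. The authors deposited spot intensity on a linear scale, written by Feature Extraction 10.7.3.1 with background subtraction and detrending per the file headers. Their second deposited file, log2 values by group, matched group means on the scale used here after each probe's median over the 12 arrays was taken off (median absolute differences 0.00255 to 0.00276). Over 31205 probes Pearson's r with those means was 0.935 for ATRA, 0.949 for 9cRA, 0.967 for the day 6 control and 0.992 for day 0, so some probes differed by more. Its column medians were 0.01 (ATRA), 0.02 (9cRA), -0.01 (day 6 control) and 0.01 (day 0), and it served as an alternative. Probe coordinates are the files' own on UMD3.1, and gene order is from the RefSeq table of ARS-UCD2.0.

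From the intensities, control spots (1417 of 45220 per array) and 191 outlier spots were left out, spots of a probe were averaged, and the 75th percentile was subtracted from log2 signal. A model of the 4 group means was fitted to the 12 arrays by lmFit and eBayes of limma 3.58.1 (R 4.3.3, two-sided), with p-values adjusted over 31207 probes, and intervals are 95%. The number of arrays limits the precision. On simulated data for ATRA against the day 6 control (31207 probes, 200 changed), 52.2% of 1.5-fold, 86.6% of 2-fold and 100% of 4-fold changes were recovered. In the data 43.5% of probes were called in that comparison, far more than were changed here, and the simulation had no slide effects. Its rates therefore do not give the sensitivity of the real test. The members and gene lists were chosen with earlier results of these data known. All members were named; up to 4 genes per list with the smallest adjusted p in a comparison, and the 2 most alike genes per member, could be named. Alternatives were other background corrections, normalizations and filters, the slide as a block, other probes and leaving out each array.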

Additional observations from a re-analysis of the deposited data

How the results depend on the processing

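Of the 9 tested genes, 7 were called over culture, 6 with ATRA and 6 with 9cRA against the day 6 control, 0 between the isomers, and 8 with ATRA and 7 with 9cRA against day 0. In that order, 61.7%, 43.5%, 43.5%, 0.151%, 70.4% and 69.8% of all tested probes were called. Requiring at least 2-fold as well left 4 over culture, 3 for ATRA and 3 for 9cRA against day 0, beside 14.0%, 20.4% and 20.0% of all tested probes. Leaving out each array in turn gave 7 to 7 over culture, 6 to 6 for ATRA and 6 to 7 for 9cRA against the day 6 control, 0 to 0 between the isomers, and 8 to 8 and 7 to 7 against day 0. With the slide as a block, DCN with both retinoids and OGN with ATRA were no longer called against day 0, and no other gene's call changed. The share of all tested probes called is not given for that fit or with arrays left out. Those calls therefore have no background beside them. Signs turned against day 0 on other probes: with ATRA DCN gave -0.087 and BGN 0.081 on 1 probe each, and with 9cRA BGN gave 0.18 on 1 probe and PRELP 0.066 and 0.097 on 2; the cause was not tested. OGN over culture was called when those 2 groups alone were fitted (0.24, adjusted p = 0.046 in limma). Median scaling moved the median of all probes by -0.13 against day 0, and the other scalings by less than 0.1. Low signal limits KERA, which had no test, and OMD at day 0. No paired analysis was possible because each group is 1 labelled sample whose array numbers tie no arrays together.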
